A study of Mus musculus with 4 samples.

Results

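Serpins, cathepsins and plasminogen activators were measured by RNA sequencing in cells of mouse pancreatic ductal adenocarcinoma that had been sorted as FAP+ CD34+ or as FAP+ CD34-. The members were all genes of the deposited count table whose symbol begins with Serpin, all genes named Cts followed by a letter or number except Ctss, and Plau, Plaur and Plat, which gave 88 of the 22609 genes. They comprised 63 serpin genes, 22 cathepsin genes and the 3 genes of the plasminogen activators and their receptor. There were 2 libraries of CD34+ cells and 2 libraries of CD34- cells, and both groups came from the same spontaneous tumour model on the C57BL/6 background, with no treatment named in the labels. FAP, fibroblast activation protein, is a surface protease of tumour stroma, and CD34 is a surface sialomucin of some stromal, endothelial and progenitor cells. The sources used here give neither the alleles that drive the tumours nor the age or number of mice behind a library.

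Serpins are proteins with a shared fold, and most of them trap and inactivate a serine protease when it cuts their exposed loop. Others have lost this activity and act as chaperones or signals. Cathepsins are proteases of the lysosome, most of them cysteine proteases, and in tumour stroma they are also known for breaking down matrix outside the cell. The plasminogen activators uPA and tPA, encoded by Plau and Plat, turn plasminogen into plasmin. The uPA receptor, encoded by Plaur, holds uPA at the cell surface, and the serpin encoded by Serpine2 (protease nexin-1) inhibits both activators.

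Levels are CPM, the counts of a gene scaled by the column total of its library, unless RPKM is named. The authors scaled RPKM to gene length, and by library factors that differ from the column totals. Serping1, for example, was 3275 and 5431 CPM in the CD34+ libraries, against 2119 and 3284 CPM in the CD34- libraries. In RPKM it was 1009 and 2170, against 951 and 1555. Ranks, shares and ratios in RPKM are taken within a library. Column totals were between 10322354 and 14633561 counts. The sorted marker Cd34 stood at 143 and 293 CPM in the CD34+ libraries, against 18.3 and 23.9 CPM in the CD34- libraries. Fap was 79.0 and 39.8 CPM in the CD34+ libraries, against 142 and 136 CPM in the CD34- libraries. All 10 fibroblast markers listed were detected, and Col1a2, the most abundant, was 15840 and 15933 CPM in the CD34+ libraries, against 18149 and 16244 CPM in the CD34- libraries. Markers of other cells were present at levels below Col1a2, but not all below Fap. The epithelial marker Krt8 stood above Fap in every library, at 219 and 205 CPM in the CD34+ libraries, against 263 and 142 CPM in the CD34- libraries. The mesothelial marker Wt1 stood above Fap in both CD34+ libraries, at 206 and 120 CPM. All 9 endothelial, 8 pericyte, 10 myeloid, 7 epithelial and 7 mesothelial markers had reads. The summed CPM of 9 endothelial markers was 89.4 and 72.8 in the CD34+ libraries, against 39.4 and 44.6 in the CD34- libraries, and that of 8 pericyte markers was 393 and 315 in the CD34+ libraries, against 489 and 565 in the CD34- libraries. For 10 myeloid markers the sums were 275 and 163 CPM in the CD34+ libraries, against 154 and 93.5 CPM in the CD34- libraries. In such sorted pools, fewer cells of a type and less RNA per cell cannot be told apart.

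The promoters below show the sequence before the start of Serpine2, the member with the lowest p of the test below, and of members that hold a known regulatory motif near their start. They are RefSeq sequences of build GRCm38.p6, each the 150 bases before the annotated start, 5′ to 3′ on the gene's own strand. Capitals mark CACGTG in the cathepsin genes, which is the core of the element bound by TFEB and related factors at lysosomal genes, and TGANTCA, the site of AP-1 factors, in Plaur.
Serpine2 (chr1:79858666-79858815, - strand): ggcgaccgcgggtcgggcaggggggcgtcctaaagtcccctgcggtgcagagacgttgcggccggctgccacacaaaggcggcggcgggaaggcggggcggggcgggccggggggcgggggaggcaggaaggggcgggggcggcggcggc
Ctsd (chr7:142387828-142387977, - strand): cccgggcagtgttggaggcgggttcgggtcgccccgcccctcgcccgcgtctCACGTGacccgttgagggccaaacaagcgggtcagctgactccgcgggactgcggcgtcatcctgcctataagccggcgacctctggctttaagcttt
Ctsa (chr2:164833623-164833772, + strand): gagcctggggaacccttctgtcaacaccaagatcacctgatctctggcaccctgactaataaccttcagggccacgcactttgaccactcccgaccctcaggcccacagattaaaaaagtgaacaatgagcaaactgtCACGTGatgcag
Ctsf (chr19:4855015-4855164, + strand): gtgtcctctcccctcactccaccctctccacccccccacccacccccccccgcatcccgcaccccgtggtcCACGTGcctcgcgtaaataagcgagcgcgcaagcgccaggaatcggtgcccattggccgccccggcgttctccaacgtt
Plaur (chr7:24462333-24462482, + strand): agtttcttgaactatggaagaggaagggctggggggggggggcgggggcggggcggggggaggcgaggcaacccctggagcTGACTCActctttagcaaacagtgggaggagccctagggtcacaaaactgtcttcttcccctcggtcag

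Windows of 250 bases before the start were on hand for 70 of the 88 members. Among the cathepsins with a mean of at least 10 CPM, 4 of 9 windows held CACGTG (44.4%), against 6.02% of the 32851 windows of all genes, and these were windows of Ctsa, Ctsd, Ctsf and Ctsl. Over all members 5 of 80 windows held it (6.25%), close to the share of all genes. Some genes have more than 1 window. None of the 14 windows of serpins at that level or at an unadjusted p under 0.05 held it. TGANTCA lay in 3 of these 14 serpin windows (21.4%), of Serpina1b and Serpinb2, against 6.75% of all windows and 15% of the members' windows (12 of 80). Serpinb2 was counted by more than 1 window, with matches at -94 and -181 from its annotated starts. Its matches to a further motif, TATAAA, at -29 and -116, were the same distance apart, so its windows most likely hold the same site. Both motifs were searched on both strands. The Serpine2 window held neither of these motifs and was 78.8% G and C, against a median of 52.4% over all windows. The heat shock motif GAANNTTC and the TATA motif TATAAA, also searched on both strands, were absent from the windows of Serpinh1 and Serpine2. They lay in 6.69% and 12.4% of all windows. A match of letters is a description of the sequence and no evidence of a bound factor.

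Together the members held 1.46% and 1.84% of all counts in the CD34+ libraries, against 1.73% and 1.95% in the CD34- libraries, so neither group stood clear of the other. Reads were concentrated in few genes. The 29 members with a mean of at least 10 CPM took 99.8% of the members' counts, and the 6 most abundant by count took 64.7%. Every member had at least 1 read in the table. The 45 members left out of the test for low counts had totals of 1 to 39 reads over the 4 libraries, and 35 and 35 of these 45 had a read in the CD34+ libraries, against 20 and 13 in the CD34- libraries. More genes overall were detected in the CD34+ libraries, 19627 and 19613, against 17452 and 16818 in the CD34- libraries. What this wider detection adds to the low members was not tested.

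**Figure D1:**
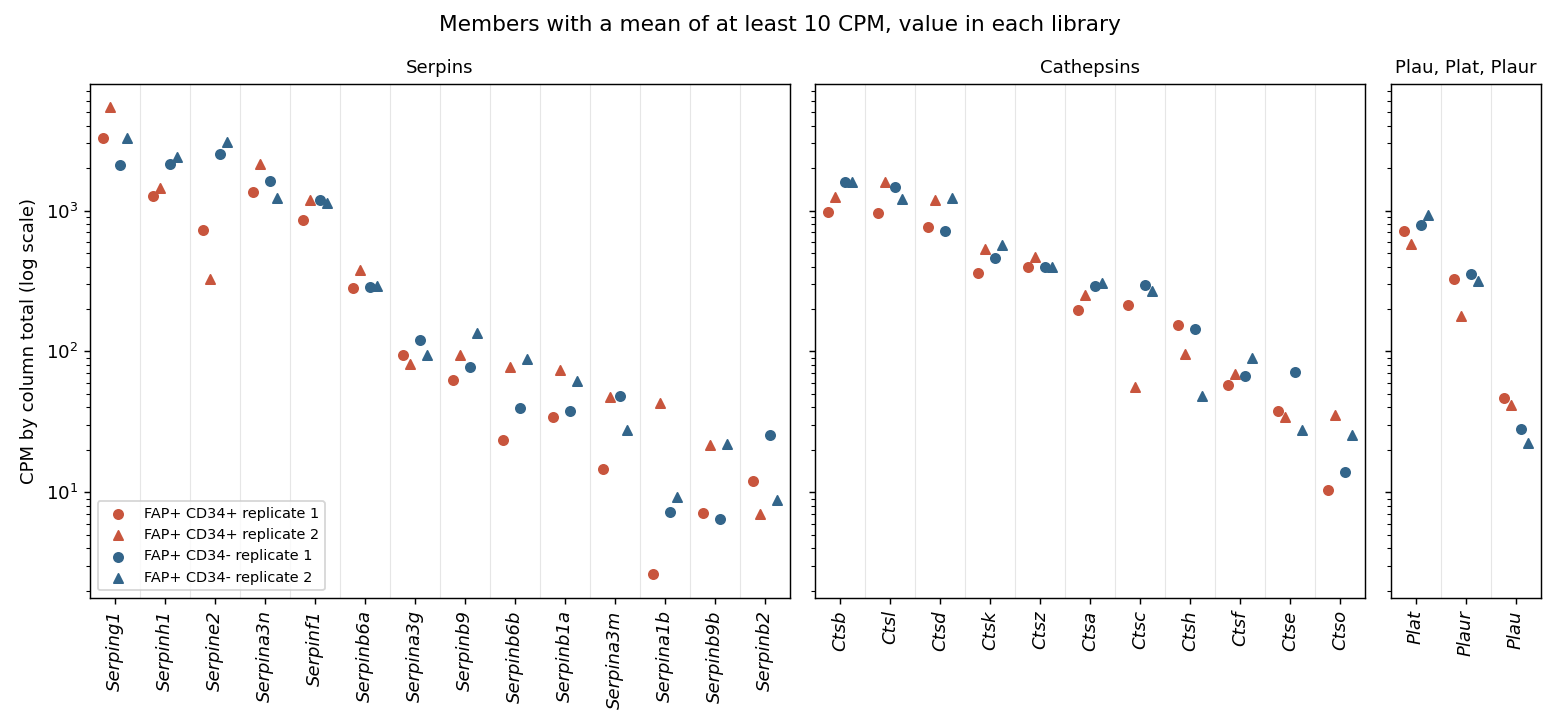
Level of 28 of the 29 members with a mean of at least 10 CPM in each of the 4 libraries, as CPM by column total on a log axis. Circles are replicate 1 and triangles replicate 2, with CD34+ libraries in red to the left of CD34- libraries in blue. Serpine2 shows a wide gap between the groups, with 729 and 324 CPM in CD34+ libraries and 2535 and 3066 CPM in CD34- libraries, while most other members overlap.

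Counts were tested with the quasi-likelihood test of edgeR on all 13875 genes that passed its filter, among them 43 members (28 serpins, 12 cathepsins and the 3 plasminogen activator genes). No member passed an adjusted p of 0.05 in either direction, as was the case for all genes (0% higher and 0% lower). At an unadjusted p of 0.05, 2 members lay higher in CD34+ cells, Plau and Serpina3c, against 9.81% of all genes tested. At the same threshold 1 member, Serpine2, lay lower, against 6.65% of all genes. The members' 3 of 43 (6.98%) lay below the 16.5% of all genes in either direction. By CPM the groups did not overlap for 8 members higher and 8 lower in CD34+ cells, against 23.4% and 26.6% of all genes, which is 37.2% of members against 50.1% of genes. DESeq2, an alternative test on the same counts, called 0 members higher and 1 lower, Serpine2, where it called 2.85% and 1.3% of all genes. The median log2 fold change of CD34+ over CD34- cells was 0.26 for serpins, -0.25 for cathepsins and -0.38 for the 3 plasminogen activator genes, beside -0.02 for all genes tested. On log2(RPKM + 1) the serpin median turned to -0.26, beside a median of -0.41 for all genes on that scale (-0.04 there with no filter), and the cathepsin median turned to 0.086 in edgeR with no filter, beside 0.17 for all genes. Over all members, the 14 tested under 10 CPM had a median of 0.64 and the 29 at or above it -0.20, beside 0.22 and -0.10 for all genes split at the same level.

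**Figure D2:**
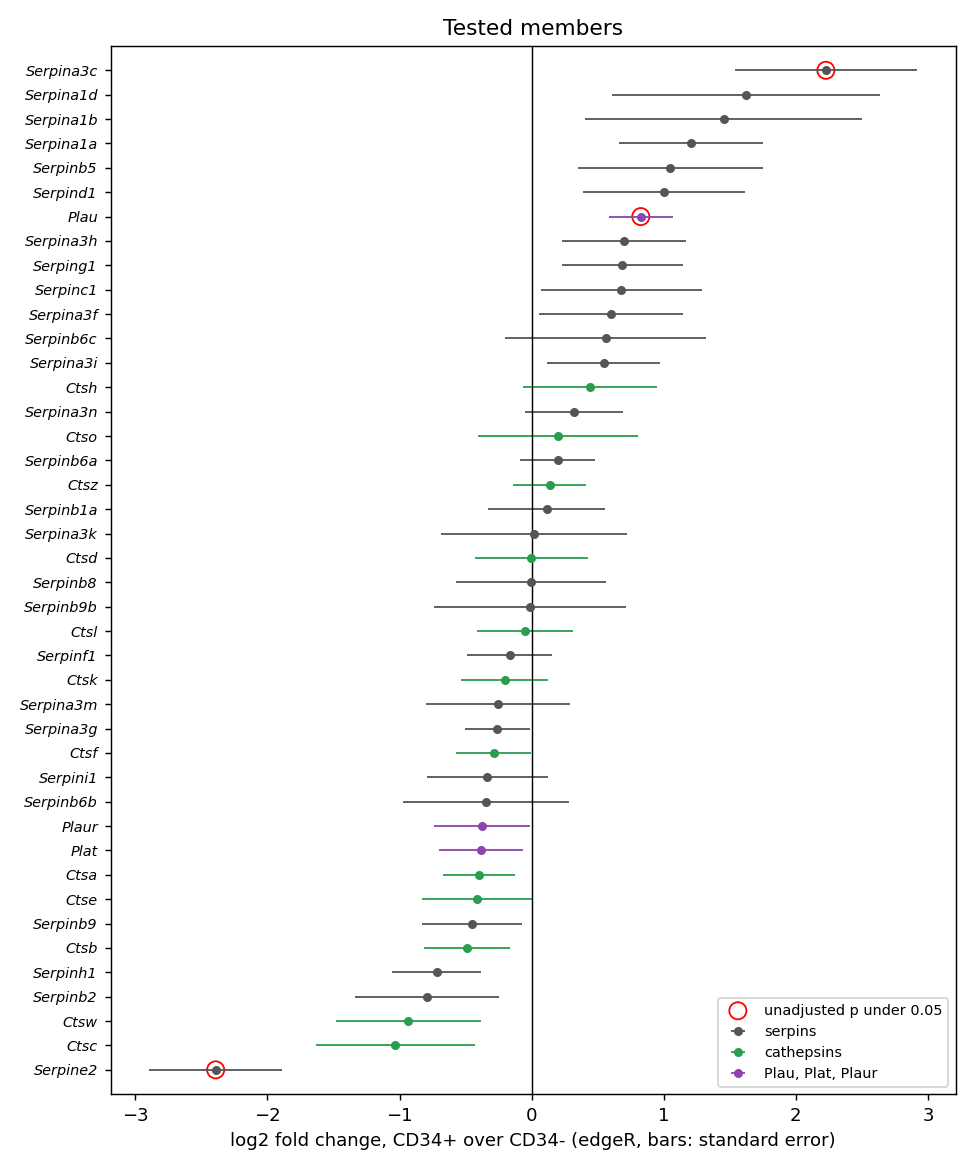
Log2 fold change of CD34+ over CD34- cells for 42 of the 43 tested members, ordered by value, with standard errors from edgeR as bars. Red circles mark the members with an unadjusted p under 0.05, which are Serpina3c and Plau on the right and Serpine2 on the left.

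Serpine2, whose product inhibits thrombin as well as both plasminogen activators, was 729 and 324 CPM in the CD34+ libraries, against 2535 and 3066 CPM in the CD34- libraries. Both CD34+ libraries lay far below both CD34- libraries, with a gap wider than the spread within either group. The fitted difference was 5.25-fold lower in CD34+ cells (log2 fold change -2.39, SE 0.50, unadjusted p = 0.0030, adjusted p = 0.173, edgeR). It kept its sign in all 16 alternative settings and passed in 5 of them. The adjusted p was 2.4e-05 by DESeq2 and 0.0092 by edgeR with no filter. It was 0.0076, 0.025 and 0.021 by limma on log2(RPKM + 1), log2(RPKM + 0.1) and log2(FPKM + 1). On those scales all genes shifted lower, with medians of -0.41, -0.49 and -0.41, and Serpine2 was -2.91, -2.91 and -2.87. Without CD34+ replicate 1 the log2 fold change was -3.13 (adjusted p = 0.320) and without CD34+ replicate 2 it was -1.93 (adjusted p = 0.173, edgeR), so its size rested on which CD34+ library was kept. Over all alternatives the adjusted p lay between 2.4e-05 and 0.509.

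**Figure D3:**
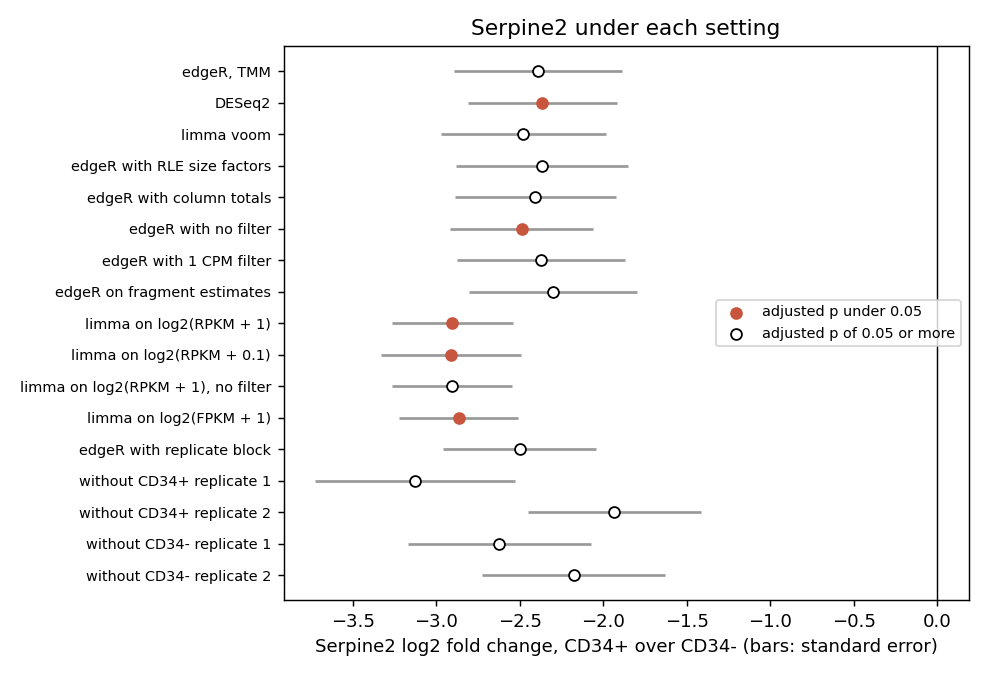
Log2 fold change of Serpine2, CD34+ over CD34- cells, in the edgeR fit and under each alternative setting, with standard errors as bars. Filled points passed an adjusted p of 0.05 and open points did not. Every value is negative, from -3.13 to -1.93.

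Some pericyte markers were lower in the same CD34+ libraries as Serpine2. Of 8 pericyte markers tested, 4 had an unadjusted p under 0.05, all lower, against 6.65% of all genes lower (edgeR). The list median was -0.94, and 0 passed the adjusted threshold. The other direction was taken by 3 of the 8, Kcnj8, Abcc9 and Notch3, with positive fold changes. Rgs5, a gene of mural cells and 1 of the 4 lower, was 2.13 and 7.33 CPM in the CD34+ libraries, against 45.5 and 89.7 CPM in the CD34- libraries. Cspg4, the most abundant of the list, was 243 and 51.9 CPM in the CD34+ libraries, against 139 and 196 CPM in the CD34- libraries, and overlapped. Their part in the Serpine2 difference was not tested.

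Serpine2 stood at ranks 8 and 13 among the 88 members by RPKM in the CD34+ libraries, against ranks 1 and 2 in the CD34- libraries. It held 7.62% and 2.52% of the summed RPKM of serpins in the CD34+ libraries, against 23.2% and 23.9% in the CD34- libraries, so its place among the serpins was lower in both CD34+ libraries. Serpinb2, encoding an inhibitor of uPA, was low, at 12.1 and 6.96 CPM in the CD34+ libraries, against 25.4 and 8.75 CPM in the CD34- libraries, and overlapped.

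The activators themselves differed less. Plau, encoding uPA, was 46.5 and 41.3 CPM in the CD34+ libraries, against 28.1 and 22.3 CPM in the CD34- libraries. Both CD34+ libraries lay above both CD34- libraries, with a log2 fold change of 0.83 (SE 0.24, unadjusted p = 0.014, adjusted p = 0.227, edgeR) that kept its sign in all 16 alternatives, from 0.24 to 0.90. Plat, encoding tPA, was the more abundant activator, at 719 and 578 CPM in the CD34+ libraries, against 786 and 924 CPM in the CD34- libraries. It lay lower in both CD34+ libraries without passing (log2 fold change -0.38, SE 0.32, adjusted p = 0.566, edgeR). Per length, Plau stood at 0.0699 and 0.0772 of the RPKM of Plat in the CD34+ libraries, against 0.0387 and 0.0261 in the CD34- libraries. Plaur, encoding the uPA receptor, was 328 and 179 CPM in the CD34+ libraries, against 355 and 316 CPM in the CD34- libraries, and overlapped (log2 fold change -0.38, SE 0.36, adjusted p = 0.618, edgeR). Without CD34+ replicate 2 its log2 fold change was -0.01.

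**Figure D4:**
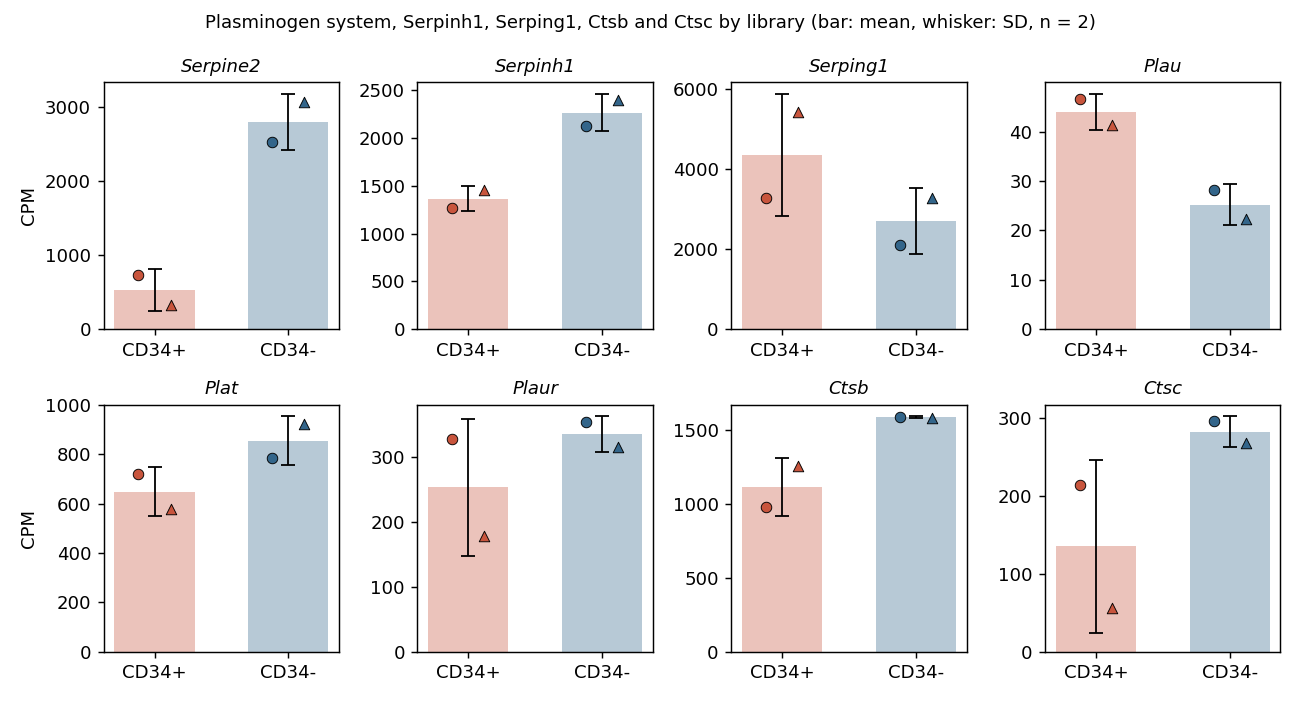
CPM in each library for the members of the plasminogen system and for Serpinh1, Serping1, Ctsb and Ctsc. Bars are group means and whiskers SD (n = 2 libraries), circles are replicate 1 and triangles replicate 2, and CD34+ is left of CD34-. Serpine2 and Serpinh1 are lower and Plau is higher in both CD34+ libraries, while Serping1 and Plaur overlap.

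A list of plasminogen partners outside the members also held serpin receptors and genes of the thrombin and tissue factor side. Of its 12 tested genes, 5 were higher and 1 was lower in CD34+ cells at an unadjusted p under 0.05. The shares of all genes were 9.81% and 6.65%. Of the 5 higher, F3, Procr and Thbd belong to the thrombin and tissue factor side, and the others were S100a10 and Vtn. Over the 12 genes the fold change was positive for 8 and negative for 4. Their median log2 fold change was 0.50, and 0 passed after adjustment (edgeR). F3, encoding tissue factor, was 196 and 100 CPM in the CD34+ libraries, against 40.2 and 45.6 CPM in the CD34- libraries (log2 fold change 1.81, SE 0.39, adjusted p = 0.173, edgeR). S100a10, a subunit of a plasminogen receptor, was 396 and 354 CPM in the CD34+ libraries, against 151 and 188 CPM in the CD34- libraries. Procr, the endothelial protein C receptor gene, was 835 and 246 CPM in the CD34+ libraries, against 55.9 and 142 CPM in the CD34- libraries. Vldlr, a receptor that takes up complexes of proteases with serpins, lay the other way, at 8.43 and 16.6 CPM in the CD34+ libraries, against 43.6 and 22.0 CPM in the CD34- libraries. Lrp1, the larger receptor of this kind, was 2545 and 1738 CPM in the CD34+ libraries, against 1476 and 1277 CPM in the CD34- libraries. Plg, encoding plasminogen, was at most 0.581 CPM in any library. Of 9 endothelial markers, 6 were higher in CD34+ cells at an unadjusted p under 0.05 and 0 lower, with a median of 1.65 (edgeR). Vwf, their most abundant, was 27.1 and 16.3 CPM in the CD34+ libraries, against 3.03 and 3.42 CPM in the CD34- libraries. Emcn and Esam went the other way, with Esam at 8.91 and 9.30 CPM in the CD34+ libraries, against 13.5 and 17.5 CPM in the CD34- libraries. Of 6 tested mesothelial markers, 3 were higher at that p, against 9.81% of all genes, and 0 were lower (edgeR). These 3 were Wt1, Lrrn4 and Upk3b, of which Lrrn4 and Upk3b averaged only 1.21 and 1.20 CPM. Msln and Upk1b had negative fold changes, with Msln at 49.8 and 13.8 CPM in the CD34+ libraries, against 75.0 and 11.6 CPM in the CD34- libraries. The summed CPM of the 7 listed mesothelial markers was 397 and 233 in the CD34+ libraries, against 249 and 158 in the CD34- libraries. Wt1, the most abundant, was 206 and 120 CPM in the CD34+ libraries, against 57.7 and 79.3 CPM in the CD34- libraries. The part of the endothelial or mesothelial markers in the differences of the plasminogen, thrombin and tissue factor genes was not tested.

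Of the serpins that do not inhibit proteases, Serpinh1 encodes HSP47, the chaperone of collagen folding in the endoplasmic reticulum. It was 1270 and 1454 CPM in the CD34+ libraries, against 2125 and 2399 CPM in the CD34- libraries. Neither group reached into the other and each was narrow, averaging 1362 ± 130 CPM in CD34+ libraries and 2262 ± 194 CPM in CD34- libraries (SD, n = 2 each). Its log2 fold change was -0.72 and did not pass (SE 0.34, adjusted p = 0.346, edgeR). Of 8 collagen chains that depend on this chaperone, 6 were negative, with a median of -0.53 (edgeR). At an unadjusted p under 0.05, 2 were lower, against 6.65% of all genes, and 0 passed after adjustment (edgeR). The 2 lower were Col5a2, at 1804 and 1662 CPM in the CD34+ libraries, against 3338 and 3390 CPM in the CD34- libraries, and Col6a1, at 948 and 929 CPM in the CD34+ libraries, against 1967 and 1411 CPM in the CD34- libraries. Col1a1 and Col5a1 had positive log2 fold changes, of 0.57 and 0.39, and Col1a2 was near level at -0.09 (edgeR). Col1a1 overlapped, at 9558 and 3979 CPM in the CD34+ libraries, against 5165 and 4185 CPM in the CD34- libraries. Serpinf1, encoding the angiogenesis inhibitor PEDF, was 860 and 1188 CPM in the CD34+ libraries, against 1185 and 1140 CPM in the CD34- libraries, and overlapped.

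Serping1, encoding the inhibitor of the complement proteases C1r and C1s, was first or second of all members by RPKM in every library. It was 3275 and 5431 CPM in the CD34+ libraries, against 2119 and 3284 CPM in the CD34- libraries. CD34+ replicate 1 and CD34- replicate 2 were nearly equal, so the groups overlapped (log2 fold change 0.69, SE 0.46, adjusted p = 0.484, edgeR). Of 11 tested proteases that serpins inhibit, 3 were higher and 1, Gzmb, was lower at an unadjusted p under 0.05 (edgeR). The shares of all genes were 9.81% and 6.65%, and the list median was 1.00. The most abundant was the Serping1 target C1s, at 899 and 1528 CPM in the CD34+ libraries, against 437 and 1010 CPM in the CD34- libraries, which overlapped as Serping1 did. C1ra, its other target, did not overlap, at 363 and 578 CPM in the CD34+ libraries, against 154 and 314 CPM in the CD34- libraries (adjusted p = 0.338, edgeR). The liver-type protease gene Hpn was 8.72 and 6.67 CPM in the CD34+ libraries, against 2.27 and 3.49 CPM in the CD34- libraries. St14, encoding the epithelial protease matriptase, was 20.5 and 3.74 CPM in the CD34+ libraries, against 3.25 and 2.46 CPM in the CD34- libraries, so that CD34+ replicate 1 carried most of its difference. Some epithelial markers were high in that same library. Cldn4 was 90.5 and 15.6 CPM in the CD34+ libraries, against 20.7 and 14.97 CPM in the CD34- libraries, and Epcam and Cldn7 also had their highest level in CD34+ replicate 1. The 7 epithelial markers summed to 733 and 455 CPM in the CD34+ libraries, against 687 and 349 CPM in the CD34- libraries, and 1 of them, Cldn7, was higher at an unadjusted p under 0.05 (edgeR). Krt8, the most abundant, was 219 and 205 CPM in the CD34+ libraries, against 263 and 142 CPM in the CD34- libraries. Their part in the St14 difference was not tested.

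The A clade holds secreted serpins related to antitrypsin and antichymotrypsin, which the mouse carries in many copies side by side. In the order of annotated genes 24 of the members stood in 1 run on the same chromosome, and Serpina3n supplied 90.2% of the summed CPM of that run. Serpina3n, an antichymotrypsin-like inhibitor known as an acute-phase protein and as an inhibitor of granzyme B, was 1345 and 2153 CPM in the CD34+ libraries, against 1612 and 1230 CPM in the CD34- libraries, and overlapped (log2 fold change 0.32, SE 0.37, edgeR). Serpina3g, which is known in mouse to protect cells from cathepsins leaking from lysosomes, was 94.6 and 81.7 CPM in the CD34+ libraries, against 120 and 94.4 CPM in the CD34- libraries. The neighbouring copy Serpina3m was 14.6 and 47.4 CPM in the CD34+ libraries, against 48.0 and 27.5 CPM in the CD34- libraries.

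Some positive values in this run came from low counts or from 1 library. Serpina3c, another antichymotrypsin-like copy, was 1.45 and 4.25 CPM in the CD34+ libraries, against 0.681 and 0.547 CPM in the CD34- libraries (log2 fold change 2.23, SE 0.69, unadjusted p = 0.017, adjusted p = 0.231, edgeR). Both CD34+ libraries were higher on 90 reads in all, and the log2 fold change was 1.25 without CD34+ replicate 2. Serpina1b, 1 of the mouse copies of alpha-1 antitrypsin, was 2.62 and 42.8 CPM in the CD34+ libraries, against 7.26 and 9.29 CPM in the CD34- libraries. Only CD34+ replicate 2 was high, and without it the log2 fold change was -1.65, against 1.45 with it. Ahsg, a plasma protein gene of liver chosen after its values were seen, was 17.5 and 108 CPM in the CD34+ libraries, against 32.4 and 26.6 CPM in the CD34- libraries, so the same library stood highest. Reads of near-identical copies of the A clade can be assigned differently by different counting methods, and the values of single copies are uncertain.

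The B clade acts inside cells, where its members guard against proteases of granules. None of those above 10 CPM separated the groups. Serpinb6a, which inhibits cathepsin G, was 282 and 377 CPM in the CD34+ libraries, against 286 and 293 CPM in the CD34- libraries. Serpinb9, the inhibitor of granzyme B, was 62.5 and 93.8 CPM in the CD34+ libraries, against 77.8 and 135 CPM in the CD34- libraries. Serpinb1a, an inhibitor of neutrophil elastase, was 34.004 and 73.9 CPM in the CD34+ libraries, against 37.8 and 61.6 CPM in the CD34- libraries. In these last 2 genes replicate 2 was the higher library of both groups. The same held for their relatives Serpinb6b, at 23.6 and 77.9 CPM in the CD34+ libraries, against 39.8 and 87.9 CPM in the CD34- libraries, and Serpinb9b, at 7.17 and 21.6 CPM in the CD34+ libraries, against 6.51 and 22.1 CPM in the CD34- libraries. In these 2 the distance between replicates was over that between the groups. Of the targets of these inhibitors, Gzma had no reads in any library and Gzmb was at most 2.27 CPM.

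The cathepsins were abundant and mostly close between the groups. Of the 12 tested, 9 were negative and 3 positive, and 0 had an unadjusted p under 0.05 (edgeR). The groups did not overlap for 4 of 12 (33.3%), each lower in CD34+ cells, against 26.6% of all genes lower and 50.1% in either direction. Per length, Ctsl led the family in 3 of the 4 libraries, with Ctsd above it in CD34- replicate 2. Ctsl held 25.7% and 31.1% of the summed RPKM of cathepsins in the CD34+ libraries, against 30.8% and 24.2% in the CD34- libraries. Ctsl, a cysteine endopeptidase of lysosomes, was 959 and 1581 CPM in the CD34+ libraries, against 1458 and 1207 CPM in the CD34- libraries. Ctsd, the aspartic protease of lysosomes, was 759 and 1186 CPM in the CD34+ libraries, against 721 and 1221 CPM in the CD34- libraries, giving a log2 fold change of -0.00 (SE 0.42, edgeR) with replicate 2 higher in both groups. Ctsk, a strong collagenase best known from osteoclasts and also made by fibroblasts, was 362 and 529 CPM in the CD34+ libraries, against 462 and 569 CPM in the CD34- libraries. Ctsz, a carboxypeptidase, was 395 and 466 CPM in the CD34+ libraries, against 396 and 396 CPM in the CD34- libraries. These 4 overlapped or lay within the spread of their replicates.

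Ctsb, Ctsa and Ctsc were lower in both CD34+ libraries. Ctsb, a cysteine protease that cuts within proteins and removes dipeptides from their carboxy end, was 977 and 1257 CPM in the CD34+ libraries, against 1591 and 1583 CPM in the CD34- libraries (log2 fold change -0.49, SE 0.33, adjusted p = 0.479, edgeR). Ctsa, the serine carboxypeptidase that stabilises lysosomal sialidase and galactosidase, was 198 and 251 CPM in the CD34+ libraries, against 292 and 306 CPM in the CD34- libraries (log2 fold change -0.40, SE 0.27, adjusted p = 0.492, edgeR). Ctsc, the dipeptidyl peptidase that activates granzymes and neutrophil serine proteases, was 214 and 56.3 CPM in the CD34+ libraries, against 296 and 268 CPM in the CD34- libraries. CD34+ replicate 2 held most of that gap. Over all libraries the log2 fold change was -1.03, SE 0.60, with an adjusted p of 0.423 by edgeR, and it was -0.38 without that library and -2.33 without CD34+ replicate 1.

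The remaining cathepsins above 10 CPM overlapped between the groups. Ctsh, an aminopeptidase, was 155 and 95.8 CPM in the CD34+ libraries, against 144 and 48.0 CPM in the CD34- libraries, with replicate 1 higher in both groups. Ctsf, a cysteine protease of lysosomes, was 57.4 and 69.5 CPM in the CD34+ libraries, against 66.4 and 89.2 CPM in the CD34- libraries. Ctse, an aspartic protease of endosomes found mainly in immune and gastric epithelial cells, was 37.5 and 34.3 CPM in the CD34+ libraries, against 71.3 and 27.5 CPM in the CD34- libraries, so CD34- replicate 1 stood alone. Ctso was 10.4 and 35.1 CPM in the CD34+ libraries, against 13.8 and 25.6 CPM in the CD34- libraries. Below that level, Ctsw, a protease of natural killer and cytotoxic T cells, was 1.16 and 1.03 CPM in the CD34+ libraries, against 1.66 and 2.53 CPM in the CD34- libraries. It was lower in CD34+ cells without overlap, as were Ctsb, Ctsa and Ctsc. The 7 lymphocyte markers summed to at most 3.74 CPM in 3 of the libraries and to 22.1 CPM in CD34+ replicate 1, owing to Cd3e, at 19.0 and 0.293 CPM in the CD34+ libraries, against 0 CPM in both CD34- libraries. Of the placental cathepsins, 8 members stood in 1 run, 0 of these were tested, and their summed level was at most 3.39 CPM in any library.

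Other lysosomal genes gave a median close to that of the cathepsins. Of 29 tested, 19 were negative and 10 positive with a median log2 fold change of -0.24. All genes tested with a mean of at least 10 CPM had a median of -0.10. At an unadjusted p under 0.05, 1 was lower and 0 were higher, against 6.65% and 9.81% of all genes, and 0 passed after adjustment (edgeR). The 1 lower gene was Npc2, encoding a cholesterol carrier of lysosomes, at 515 and 567 CPM in the CD34+ libraries, against 1175 and 921 CPM in the CD34- libraries. The listed inhibitors of cysteine cathepsins and their relatives had 6 of 7 tested genes positive with a median of 0.79, and 0 at an unadjusted p under 0.05 (edgeR). Of these, 4 are cystatins or stefins, with Cst3, Cstb and Cst6 positive and Cst7 negative, and Cst6 and Cst7 averaged only 0.70 and 0.91 CPM. The others are the plasma protein genes Kng1, Fetub and Ahsg, each with its highest level in CD34+ replicate 2. Cst3, encoding the secreted inhibitor cystatin C, was 450 and 820 CPM in the CD34+ libraries, against 341 and 396 CPM in the CD34- libraries (log2 fold change 0.79, SE 0.37, adjusted p = 0.347, edgeR). In RPKM, the ratio of Ctsb to Cst3 was 0.340 and 0.240 in the CD34+ libraries, against 0.732 and 0.625 in the CD34- libraries, and that of Ctsl to Cst3 was 0.802 and 0.726 in the CD34+ libraries, against 1.61 and 1.15 in the CD34- libraries. Both ratios were lower in both CD34+ libraries, and both were chosen after the values were seen and have no test.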

How the data were processed

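Per the labels' protocols, Purelink was used to isolate RNA and MessageAmp to amplify it. Tools listed in the submitters' processing notes are TopHat2, Bowtie2, HTSeq and edgeR, with build mm9, and the sources used here state neither versions nor strand. The authors deposited read counts per gene, RPKM and bias-adjusted FPKM. The authors also deposited estimated counts of fragments, which were rounded here. A further 14 columns of each file match no sample and were not used.

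Counts were tested with edgeR 4.0.16 (R 4.3.3), with TMM scaling, filterByExpr and group as the only term, after tests on simulated data, and p was adjusted by Benjamini-Hochberg over all 13875 genes. All tests are two-sided. Fold changes are CD34+ over CD34-, and the SE is the log2 fold change over the square root of F. TMM factors lay between 0.961 and 1.05, so CPM by column total and fitted values differ slightly. With 2 libraries per group an exact permutation test cannot go below p = 0.333 and was not run. A count of 0 allows up to 3 counts, 0.205 to 0.291 CPM, counting error only. The labels call the samples biological replicates but do not name the animals, so p-values measure the spread between these libraries.

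Members and gene lists were chosen with earlier results of these data known. Values are given for members with a mean of at least 10 CPM, those at an unadjusted p under 0.05 and the plasminogen activator genes, and from each list for up to 4 genes at that p from 5 CPM and the most abundant one. Member symbols matched RefSeq tables of GRCm38 (87 current, 1 older). Alternatives were DESeq2 1.42.0, limma 3.58.1 (voom, or log2 RPKM or FPKM with pseudocounts of 1 or 0.1, from 1 RPKM or FPKM in 2 libraries or unfiltered), other scalings and filters, the fragment estimates, a replicate block and leaving out each library. The values of 1 member are not reported here, although the counts and medians over members include it.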

Additional observations from a re-analysis of the deposited data

How the results depend on the processing

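Serpine2 was called in 5 of the 16 alternatives, and 12 of the 30 named members never changed sign. The median log2 fold change of all genes, -0.02 here, was -0.41 on log2(RPKM + 1), -0.49 on log2(RPKM + 0.1), -0.41 on log2(FPKM + 1), -0.04 on log2(RPKM + 1) with no filter and 0.17 by edgeR with no filter, and values under those settings stand beside these medians. Members lower at an adjusted p under 0.05 numbered 1 by DESeq2, by edgeR with no filter and by limma on log2(RPKM + 1), log2(RPKM + 0.1) and log2(FPKM + 1). At an unadjusted p, lower members numbered 2 by DESeq2 and on fragment estimates, 4 with no filter and on log2(RPKM + 0.1), 7 on log2(RPKM + 1), 6 on it with no filter, and 8 on FPKM. Higher members numbered 7 by edgeR with no filter and 0 on the 3 RPKM settings and FPKM. The serpin median was 1.00 with no filter, -0.26 and -0.33 on RPKM with pseudocounts of 1 and 0.1, and -0.22 on FPKM. The cathepsin median was 0.086 with no filter, and -0.62, -0.65 and -0.61 on those scales. The plasminogen activator median was -0.88 on FPKM. Relative to column totals, the library factors of RPKM are lower in both CD34+ libraries than in both CD34- libraries. Genes well above the pseudocount therefore shift together towards lower values in CD34+ cells on RPKM. The part of filters, pseudocounts and the FPKM method in the other differences was not tested.

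Signs turned for these genes. On RPKM with pseudocounts of 1 and 0.1 (the first with and without a filter) Serpina3n was -0.12 throughout, Ctsz -0.28, Serpinb6a -0.22 and -0.23, Serpinb1a -0.31 and -0.34, and Ctso -0.24 and -0.36. On FPKM these were -0.25, -0.46, -0.21, -0.22 and -0.015, and Serpina1b was -0.042, against 1.45 by edgeR. On fragment estimates Ctsl was 0.13, Ctsz -0.013 and Serpinb9b 0.018. Ctsd was 0.015 by DESeq2 and with RLE factors, 0.026 by voom, 0.0039 with column totals and 0.012 with a filter of 1 CPM, where Serpinb9b was 0.14 by voom, 0.016 and 0.0014.

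Same-numbered libraries of the groups correlated at r = 0.241 in their deviations over 13875 genes, but with 2 pairs the number is only a name. With the replicate block 3 members were lower at an unadjusted p and 0 passed after adjustment (edgeR), Serpine2 had an adjusted p of 0.077, and Ctsd was 0.035 and Serpinb9b 0.062.

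Leaving out each library in turn gave 1 to 5 members higher and 1 to 3 lower at an unadjusted p, and 0 after adjustment. Medians were -0.12 to 0.62 for serpins, -0.43 to -0.08 for cathepsins and -0.58 to -0.01 for the plasminogen activator genes. Log2 fold changes with a turned sign were Serpina3n -0.058 to 0.60, Ctsl -0.45 to 0.24, Serpinf1 -0.42 to 0.022, Ctsd -0.42 to 0.52, Ctsk -0.51 to 0.034, Serpinb6a -0.030 to 0.37 and Ctsh -0.11 to 1.30. Others were Serpinb9 -0.88 to 0.094, Ctsf -0.58 to 0.022, Serpinb6b -1.45 to 0.44, Serpinb1a -0.55 to 0.60, Ctse -0.90 to 0.30, Serpina3m -1.34 to 0.33, Ctso -0.93 to 0.80, Serpina1b -1.65 to 2.35, Serpinb9b -1.02 to 1.23 and Serpinb2 -1.33 to 0.037. A lone library was assumed to vary like the other group. Depth limits the 45 untested members, with at most 39 reads each.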

Other observations

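The read counts and the estimated fragments were made from the same libraries by different counting methods, and they weighed some members differently. Over the 4 libraries, the 29 members with a mean of at least 10 CPM had a median of 1.02 fragments per count, from 0.473 for Ctso to 1.68 for Serpina1b, and 10 of them lay outside a factor of 1.5 of equality. Among members tested at lower levels, the antitrypsin copies Serpina1a and Serpina1d had 2.86 and 2.43 fragments per count. The antichymotrypsin copies Serpina3g, Serpina3m, Serpina3h and Serpina3c had 1.06, 1.00, 1.03 and 0.989.

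Other inhibitor and protease members were detected at low levels. Serpind1, encoding heparin cofactor II, was 5.43 and 2.27 CPM in the CD34+ libraries, against 2.50 and 1.44 CPM in the CD34- libraries. Serpinb5, encoding maspin of epithelial cells, was 2.23 and 1.90 CPM in the CD34+ libraries, against 0.454 and 1.503 CPM in the CD34- libraries. Serpinc1, encoding antithrombin, was 2.03 and 0.952 CPM in the CD34+ libraries, against 0.984 and 0.888 CPM in the CD34- libraries. Serpini1, encoding neuroserpin, an inhibitor of tPA in brain, was 3.10 and 2.86 CPM in the CD34+ libraries, against 3.33 and 4.24 CPM in the CD34- libraries. Serpinf2, encoding the plasmin inhibitor antiplasmin, had 6 and 4 reads in the CD34+ libraries, against 1 and 2 reads in the CD34- libraries. Ctsg, encoding cathepsin G of neutrophils, had 0 and 2 reads in the CD34+ libraries, against 0 reads in both CD34- libraries.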
